A study of Mus musculus with 4 samples.

Results

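Integrins are adhesion receptors made of 1 alpha and 1 beta subunit, and 8 integrin genes and Pecam1, an immunoglobulin-family adhesion molecule, were examined in tumor-associated macrophages (TAMs) sorted from mouse melanomas. The 9 genes were taken as a list of symbols (Itgal, Itgam, Itgax, Itgb2, Itga4, Itgav, Itgb1, Itgb7 and Pecam1) and matched by Entrez identifier among 16739 genes with a value in any library. All 9 had a value in all 4 libraries. B16-F10 cells, a melanoma line of the C57BL/6 strain, had been injected under the skin of C57BL/6 mice aged 6 to 8 weeks, and TAMs positive for CD45, CD11b and F4/80 were sorted on day 16. RNA-seq was done on 2 WT libraries (genotype wild type) and 2 libraries with the genotype label Trim24-/-, from mice with loxP-flanked Trim24 and the LysM-Cre driver, here named mutant-labelled (Trim24-deficient in the plots). LysM-Cre acts in macrophages and other myeloid cells, neutrophils included, so the deletion was not limited to TAMs, and the controls are WT littermates whose Cre and loxP status is not given in the sources used here. The comparison asks how these transcripts differed in TAMs between the genotype labels.

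Leukocytes carry beta2 integrins as their typical set. Itgb2 (CD18) pairs with Itgal (CD11a) to form LFA-1, with Itgam (CD11b) to form Mac-1, which is also complement receptor 3, and with Itgax (CD11c) to form complement receptor 4. Itgb1 (CD29) pairs with Itga4 (CD49d) into VLA-4, the receptor for VCAM-1 and fibronectin, and with Itgav (CD51) and many other alpha chains, whereas Itgb7 pairs with Itga4 into the receptor for MAdCAM-1. Pecam1 (CD31) binds itself at endothelial junctions and on leukocytes and platelets during transmigration. Itgam encodes the CD11b used in the sort, so its presence was set by the gate.

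The promoters of 3 members are shown because they represent the CD11b gene of the gate, its chromosomal neighbour Itgax and Itgb7, the integrin with the smallest p. Each is the 250 bases before the transcription start that the RefSeq table of GRCm38.p6 uses, 5′ to 3′ on the gene's strand, and capitals mark GAGGAA on either strand, a word bound by the myeloid factor PU.1, or TTC and GAA with any 4 bases between them, the palindromic word that Stat6 can bind. The Itgam window is chr7:128062390-128062639 on the plus strand, the Itgax window is chr7:128129300-128129549 on the plus strand, and the Itgb7 window is chr15:102231936-102232185 on the minus strand. The starts used can differ from the outer ends of the gene spans given below. The Itgb7 window lies inside its gene span, and the Itgax window ends just inside its own.
Itgam: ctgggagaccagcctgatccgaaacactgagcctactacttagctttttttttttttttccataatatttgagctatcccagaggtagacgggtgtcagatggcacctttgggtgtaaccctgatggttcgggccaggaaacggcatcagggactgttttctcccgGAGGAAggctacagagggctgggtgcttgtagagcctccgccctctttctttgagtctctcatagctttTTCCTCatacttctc
Itgax: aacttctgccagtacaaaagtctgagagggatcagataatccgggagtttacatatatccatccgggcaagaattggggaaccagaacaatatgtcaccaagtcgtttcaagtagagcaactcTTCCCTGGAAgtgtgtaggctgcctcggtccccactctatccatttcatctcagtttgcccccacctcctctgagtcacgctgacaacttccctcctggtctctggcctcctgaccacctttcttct
Itgb7: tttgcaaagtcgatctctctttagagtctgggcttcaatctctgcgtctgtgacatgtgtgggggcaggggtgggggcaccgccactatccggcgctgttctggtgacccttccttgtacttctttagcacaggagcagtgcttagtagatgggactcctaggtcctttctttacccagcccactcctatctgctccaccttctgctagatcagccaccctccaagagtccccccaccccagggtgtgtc
The Itgam window held GAGGAA at 2 places, with first bases 84 and 15 bases before the start, and the Itgax window held the TTC and GAA word at 1 place, 127 bases before the start. The table held promoters of 6 of the 9 members, and Itgal, Itgb2 and Pecam1 were not among them. GAGGAA was present in 3 of these 6 (Itgam, Itgav and Itgb1), beside 23.3% of all 32851 promoters of the table, and the TTC and GAA word in 1 of 6, beside 5.85%. Itga4 and Itgb7 held neither word. No 2 matches overlapped, and a match is a description of letters and not of binding.

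On chromosome 7 Itgal (chr7:127296139-127335137, 31 exons), Itgam (chr7:128062640-128118491, 30 exons) and Itgax (chr7:128129526-128150657, 30 exons) lie on the plus strand, with 11035 bases between the end of Itgam and the start of Itgax. Their shared partner Itgb2 is on another chromosome (chr10:77530329-77565708, plus strand, 16 exons). Itga4 (chr2:79255426-79333114, 28 exons) and Itgav (chr2:83722303-83806917, 30 exons) lie on the plus strand of chromosome 2, Itgb1 on that of chromosome 8 (chr8:128685654-128733579, 16 exons), and Itgb7 (chr15:102215994-102233405, 15 exons) and Pecam1 (chr11:106654213-106715281, 16 exons) on minus strands. All positions are of GRCm38.p6 and all 9 genes are protein coding. Reads were counted over whole transcripts. How many reads RSEM shared between genes cannot be read from the expected counts.

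The libraries held 4476122 to 5172407 expected counts, and 3 counts correspond to 0.606 to 0.639 CPM (counts scaled to a common TMM-scaled library total), below the value of every member in every library, the lowest being Pecam1 at 5.63 CPM in WT replicate 2. Trim24 itself was low and did not separate the labels, with 5.86 and 2.08 CPM in the WT libraries and 3.41 and 0.411 CPM in the mutant-labelled libraries (log2 fold change -1.06, adjusted p = 0.635, edgeR quasi-likelihood test). Xist, expressed from the inactive X chromosome of females, was at 6.46 to 10.9 CPM in WT and 256 to 437 CPM in the other libraries, while the Y-linked Ddx3y was at 73.7 to 102 and 0.411 to 0.426 CPM, so sex and genotype label cannot be told apart in any difference below. FPKM (fragments scaled to transcript length and library total) was 326 to 374 for Adgre1 (F4/80) and 102 to 143 for Ptprc (CD45). Both are markers of the gate, so their presence was set by the sort. Of the macrophage genes outside the gate, Csf1r was at 337 to 378 FPKM and Mertk at 8.75 to 11.7 FPKM. Over the 11302 genes that passed the filter on low counts, 42 were called, that is 33 higher and 9 lower in the mutant-labelled libraries, at a fold change above 1.5 and an adjusted p (false discovery rate, FDR) below 0.05.

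None of the 9 members, all of which passed the filter, was called by edgeR (0 of 9, beside 0.372% of all tested genes, 0.292% higher and 0.0796% lower). At an unadjusted p under 0.05 there were 5 members, Itgal, Itgam, Itgb2, Itgb7 and Pecam1, beside 12.2% of tested genes, all 5 with higher values in the mutant-labelled libraries. DESeq2, fitted to the same counts, called 2 of 9 (Itgb2 and Itgb7, beside 0.977% of its tested genes), and limma on log2(FPKM + 1) called 0 (beside 0.207%). The CPM of the groups did not overlap for 5 members, 4 higher (Itgam, Itgb2, Itgb7 and Pecam1) and 1 lower (Itgav), whereas 44.5% of all tested genes did not overlap, 21.4% higher and 23.0% lower. The log2 fold change was above 0 for 6 members and below 0 for 3, with a median of 0.65 beside -0.00586 over all tested genes. Within the mutant-labelled libraries, replicate 1 exceeded replicate 2 for 9 of 9 members, whereas it did so for 50.2% of all tested genes. Mutant-labelled replicate 1 held the highest value of the 4 libraries for 7 members. Within the WT libraries, replicate 1 exceeded replicate 2 for 7 of 9 members.

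**Figure D1:**
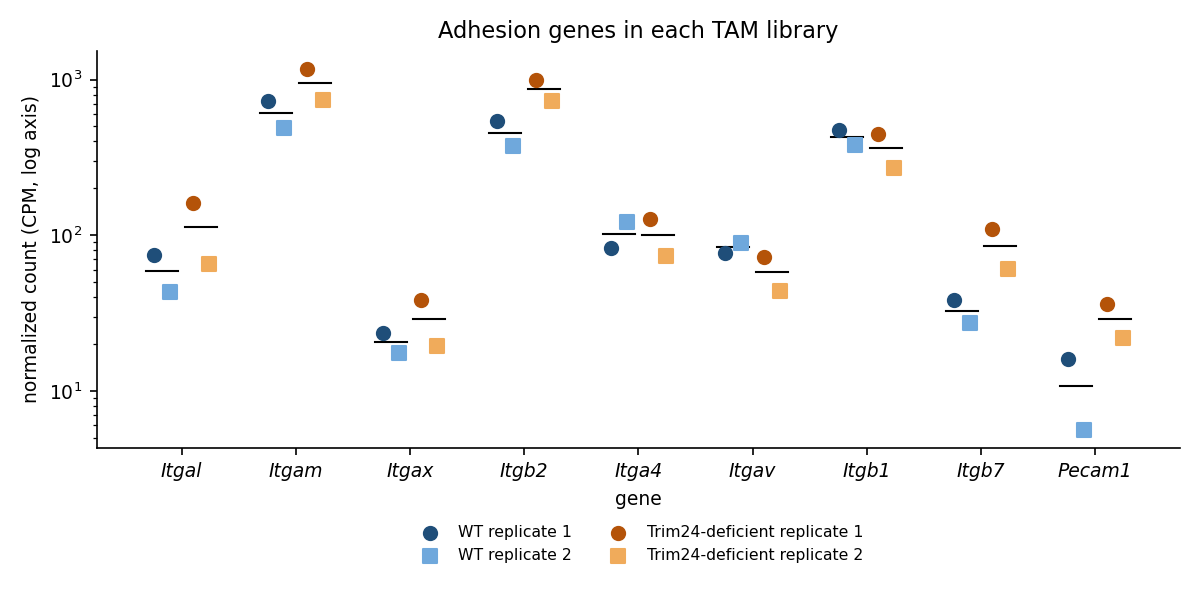
CPM (TMM-scaled counts, log axis) of each of the 9 members in 2 WT libraries and 2 mutant-labelled libraries, 1 point per library with bars at the group means. Itgam, Itgb2, Itgb7 and Pecam1 lie higher in both mutant-labelled libraries than in either WT library, Itgav lies lower, and the other 4 members overlap.

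By FPKM, which allows genes to be set side by side, 3 subunits stood far above the rest. In WT TAMs the mean FPKM was 165.2 ± 37.1 (SD, n = 2) for Itgb2, 134.7 ± 33.9 for Itgam and 104.8 ± 13.0 for Itgb1, and these neighbours overlapped in their libraries. Then came a gap down to 12.61 for Itgb7, 12.23 for Itgav, 11.56 for Itgal and 10.75 for Itga4, which also overlapped with each other, and a lower pair of 5.245 for Itgax and 3.485 for Pecam1. In the mutant-labelled libraries the order at the top was the same, with 283.7 ± 64.5 for Itgb2, 191.4 ± 62.9 for Itgam and 80.6 ± 28.9 for Itgb1, now without overlap between neighbours. Below them Itgb7 (29.59), Itgal (20.34), Itga4 (9.535), Pecam1 (8.525), Itgav (7.655) and Itgax (6.74) followed, each overlapping with the next. The level of Itgax, whose protein CD11c is a usual marker of dendritic cells and of some macrophages, was thus at the low end of the list under both labels.

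Among the beta2 integrins the common beta chain had the smallest p, and none of the 4 genes was called. Itgb2 was at 538 and 374 CPM in WT (replicate 1 before replicate 2, here and below) and at 995 and 730 CPM in the mutant-labelled libraries. Both of the latter lay above both WT libraries, and the means were 456 ± 116 and 863 ± 187 CPM (SD, n = 2 each). The log2 fold change was 0.92 (SE 0.26, 95% interval 0.35 to 1.497) with an adjusted p of 0.203 from edgeR's quasi-likelihood test, and 96.6% of tested genes had a lower log2 fold change. Itgam, the CD11b of the sort, was at 732 and 489 CPM in WT and at 1172 and 741 CPM in the mutant-labelled libraries. The groups did not overlap, but WT replicate 1 and the lower of the other libraries, replicate 2, were nearly level, and in FPKM the order of these libraries turned (158.7 in WT replicate 1 and 146.9 in mutant-labelled replicate 2), so the separation depended on the scaling. For Itgam the log2 fold change was 0.65 (SE 0.29, interval 0.0031 to 1.29, adjusted p = 0.408).

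The remaining beta2 alpha chains overlapped between labels. Itgal, the CD11a chain that lymphocytes also express, was at 74.3 and 42.9 CPM in WT and at 161 and 65.3 CPM in the mutant-labelled libraries. Replicate 1 of the latter stood apart at 2.47 times its fellow, which lay between the WT libraries. Its log2 fold change was 0.95 (SE 0.39, interval 0.066 to 1.83, adjusted p = 0.377). Itgax was at 23.4 and 17.5 CPM in WT and at 38.3 and 19.5 CPM in the mutant-labelled libraries (log2 fold change 0.50, SE 0.33, interval -0.24 to 1.23, adjusted p = 0.571). Here too only replicate 1 of the mutant-labelled libraries exceeded both WT libraries.

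Calls among the 4 beta2 genes depended on which mutant-labelled library was kept. Without replicate 2, edgeR called all 4 beta2 genes, with a log2 fold change and adjusted p of 1.13 and 0.00384 for Itgb2, 0.94 and 0.0245 for Itgam, 1.46 and 7.07e-05 for Itgal, and 0.91 and 0.0324 for Itgax. That fit called 5.54% of all genes it tested, and it rests on 1 remaining library of that label. Without replicate 1 of that label, none of the 4 was called, Itgal fell to 0.16 on the log2 scale and Itgax turned to -0.064.

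Some marker lists of other leukocytes differed between the libraries as well. The T and NK cell list summed to 102 and 66.54 FPKM in WT and to 220.1 and 74.66 FPKM in the mutant-labelled libraries. Itgal had the same order of the 4 libraries in CPM and in FPKM. Itgax had it in CPM but not in FPKM, and Itgam in FPKM but not in CPM. With 4 libraries a shared order was not tested. The order of the list sums rested on Nkg7, a cytotoxic granule gene at 48.92, 27.33, 120.47 and 42.88 FPKM. Without Nkg7 the list summed to 53.05 and 39.21 FPKM in WT and to 99.65 and 31.78 FPKM in the others. Both sums were highest in mutant-labelled replicate 1. The T cell gene Cd3e at 1.76 FPKM in mutant-labelled replicate 2 lay below its 3.05 and 2.97 FPKM in WT. Of the 10 genes of the list, 9 overlapped between labels. The monocyte list summed to 489.8 and 497.5 FPKM in WT and to 1534 and 827 FPKM in the others, mostly from Ly6c2 and Plac8, with 4 of 6 genes higher in both mutant-labelled libraries and Vcan and Fn1 overlapping. The neutrophil list summed to 115.7 and 131.7 FPKM in WT and to 199.1 and 505.9 FPKM in the others, where S100a8 alone gave 92.31 and 305.19 FPKM. This list thus had its highest sum in mutant-labelled replicate 2. Of its 9 genes, 5 were higher in both mutant-labelled libraries, among them Ly6g at 0 in both WT libraries and 2.11 and 0.95 FPKM in the others, and 4 overlapped, among them Cxcr2 at 21.27 and 29.33 FPKM in WT and 13.33 and 23.57 FPKM in the others. Melanoma markers summed to 268 and 254 FPKM in WT and to 162.6 and 218.8 FPKM in the mutant-labelled libraries, and the B cell list spanned 38.84 to 45.71 FPKM and the fibroblast list 0.6 to 1.32 FPKM, both with overlap. The sum of the dendritic list spanned 45.06 to 61.34 FPKM and overlapped, with 22.02 to 36.96 FPKM from Batf3. Of its 9 genes, 3 were lower in both mutant-labelled libraries, 1 was higher and 5 overlapped. The sum of the macrophage list, at 22590 to 25090 FPKM, overlapped as well. Their part in the differences of the integrin genes was not tested, and in sorted bulk RNA more cells of a type and more RNA per cell cannot be told apart.

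**Figure D2:**
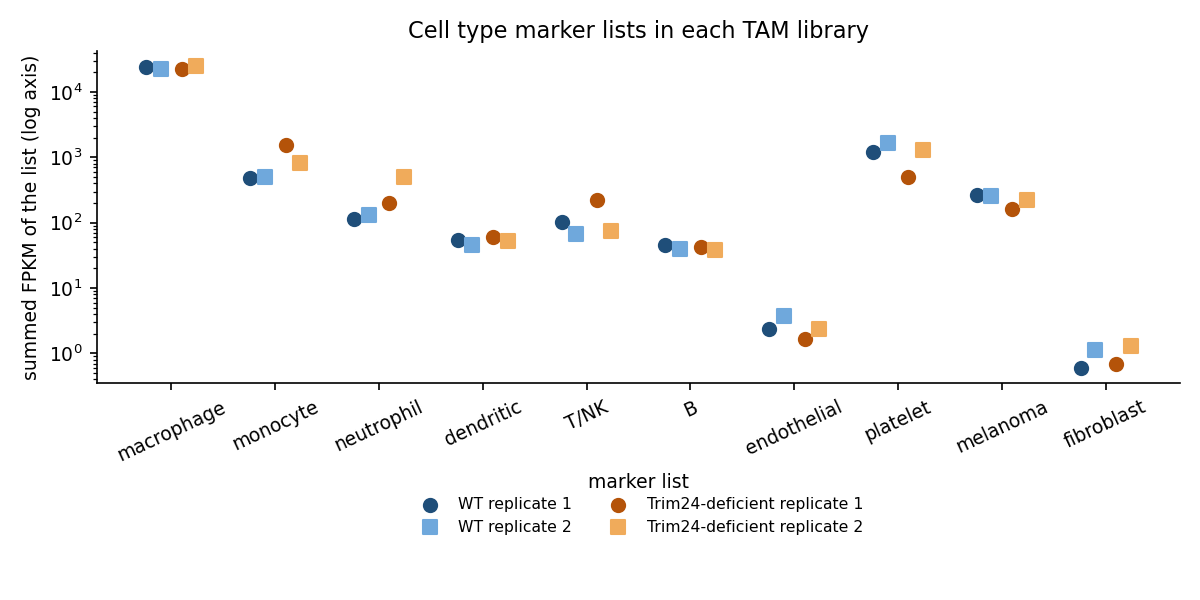
Summed FPKM of marker genes of each cell type (log axis) in the 4 libraries, 1 point per library. The monocyte and neutrophil sums are higher in both mutant-labelled libraries, the T and NK cell sum is highest in replicate 1 of that label at 220.1, and the endothelial and fibroblast sums stay at or below 3.68.

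Ratios within a library do not depend on the scaling of libraries. They were not corrected for the relation of log2 fold change to transcript length given below, and the subunits compared differ in length. Of the FPKM summed over the 4 alpha chains that pair with Itgb2 (Itgal, Itgam, Itgax and Itgad), Itgam made up 88.5% and 89.2% in WT and 86.0% and 90.1% in the mutant-labelled libraries, so the makeup of the alpha chains overlapped between labels. Itgal gave 8.04% and 7.01% in WT and 10.6% and 7.12% in the others, Itgax 2.77% to 3.71% over all 4 libraries, and Itgad at most 0.156%. The beta chain stood higher against the alpha chains in the mutant-labelled libraries. The ratio of Itgb2 to the summed alpha chains was 1.07 and 1.12 in WT and 1.20 and 1.46 in the others. For single chains, Itgam to Itgb2 was 0.829 and 0.797 in WT and 0.716 and 0.617 in the others, without overlap (mean log2 difference -0.29). Itgax to Itgb2 was 0.0308 and 0.0331 in WT and 0.0272 and 0.0189 in the others, also without overlap (mean log2 difference -0.49). Itgal to Itgb2 overlapped, with 0.0753 and 0.0626 in WT and 0.0883 and 0.0487 in the others. The exact two-sided permutation p was 0.333 for each ratio without overlap, the smallest that 2 against 2 libraries allow, so none can pass the threshold.

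The beta1, alpha-v and alpha4 subunits had log2 fold changes below 0, none of them called. Itgb1 was at 471 and 378 CPM in WT and at 449 and 271 CPM in the mutant-labelled libraries, and the groups overlapped. Its log2 fold change was -0.24 (SE 0.27, interval -0.83 to 0.36, adjusted p = 0.764). Itgav, a receptor chain for vitronectin and for latent TGF-beta, was at 77.3 and 89.4 CPM in WT and at 72.0 and 43.6 CPM in the others, the only member with both values below both WT values. For Itgav the log2 fold change was -0.53 (SE 0.25, interval -1.09 to 0.030, adjusted p = 0.424), and without replicate 1 of the mutant-labelled libraries it was called, at -0.93 with an adjusted p of 0.0161 (beside 3.46% of genes in that fit). Itga4 was at 83.2 and 121 CPM in WT and at 127 and 73.6 CPM in the others, so each group held a high and a low library. Its log2 fold change was -0.024 (SE 0.28, interval -0.66 to 0.61, adjusted p = 0.984).

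Longer transcripts had lower log2 fold changes. Over the 11302 tested genes Spearman's rho between log2 fold change and log2 transcript length was -0.249, a description across genes that share 4 libraries. Itga4 is longer than 98.3% of tested genes, Itgav than 94.1% and Itgb1 than 75.2%. Itgal (85.8%), Itgam (81.4%) and Itgax (72.9%), whose log2 fold changes were above 0, are also longer than most. Pecam1 (59.2%), Itgb2 (51.3%) and Itgb7 (47.3%) are of middle length. With the length trend removed, Itga4 turned to 0.26 (adjusted p = 0.705) and the other 8 members kept their direction.

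Itgb7 had the smallest p of the integrins. It was at 38.4 and 27.1 CPM in WT and at 109 and 60.4 CPM in the mutant-labelled libraries. Both of the latter exceeded both WT libraries, with means of 32.7 ± 7.98 and 84.6 ± 34.3 CPM (SD, n = 2 each). The fitted fold was 2.58 (log2 fold change 1.37, SE 0.30, interval 0.70 to 2.04), with an unadjusted p of 0.00116 and an adjusted p of 0.113 from edgeR's quasi-likelihood test, and 98.7% of tested genes had a lower log2 fold change. Without replicate 1 of that label the log2 fold change of Itgb7 was 0.89, and without replicate 2 it was 1.73. It was 1.66 without WT replicate 1 and 1.14 without WT replicate 2. Itga4, the alpha chain it pairs with, had nearly equal group means of 102 ± 26.8 and 100.5 ± 38.1 CPM (SD, n = 2 each). The ratio of Itgb7 to Itga4 in FPKM was 1.70 and 0.825 in WT and 3.15 and 3.03 in the mutant-labelled libraries (mean log2 difference 1.38, exact permutation p = 0.333). Itgae, the other alpha chain that pairs with Itgb7, was at 0.822 to 1.06 CPM in all libraries, near the level of 3 counts.

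The ratio of Itga4 to Itgb1 overlapped, with 0.0749 and 0.136 in WT and 0.120 and 0.115 in the mutant-labelled libraries, whereas Itgav to Itgb1 was 0.0973 and 0.140 in WT and 0.0949 and 0.0951 in the others (mean log2 difference -0.30, exact permutation p = 0.333). Between the 2 most abundant beta chains, Itgb2 to Itgb1 was 1.68 and 1.45 in WT and 3.26 and 3.96 in the mutant-labelled libraries, without overlap and with a mean log2 difference of 1.20. This ratio was chosen after its values were seen and has no test. When any 1 library was left out it lay between 1.06 and 1.34 on the log2 scale, a range from the same values that led to its choice.

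**Figure D3:**
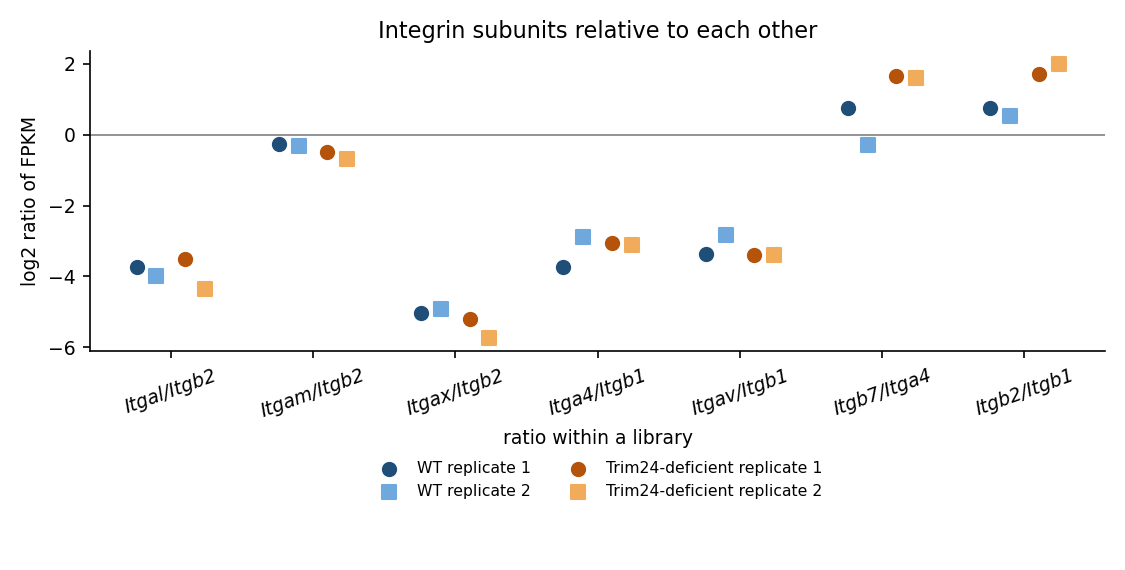
Ratio of FPKM of paired or compared subunits within each library (log axis), 1 point per library. Itgb2 to Itgb1, chosen after its values were seen, is higher in both mutant-labelled libraries (3.26 and 3.96). So is Itgb7 to Itga4 (3.15 and 3.03). Itgam and Itgax to Itgb2 and Itgav to Itgb1 are lower, and Itgal to Itgb2 and Itga4 to Itgb1 overlap.

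Pecam1 had the largest log2 fold change of the members, and in WT the lowest counts. It was at 16.0 and 5.63 CPM in WT, the latter from 27 counts, and at 36.0 and 21.99 CPM in the mutant-labelled libraries. Both of the latter exceeded both WT libraries, which themselves differed 2.84-fold. The log2 fold change was 1.42 (SE 0.44, interval 0.44 to 2.40, adjusted p = 0.228). It was called without replicate 2 of the mutant-labelled libraries (1.73, adjusted p = 0.00172) and without WT replicate 1 (2.38, adjusted p = 0.0416, beside 0.563% of genes in that fit), and not without mutant-labelled replicate 1 or without WT replicate 2, a fit that called 0 members and 0.215% of genes. Endothelial markers were near 0 and their sum overlapped between labels. They summed to 2.35 and 3.68 FPKM in WT and to 1.65 and 2.37 FPKM in the others, with Tek and Cldn5 listed at 0 in every library. Pecam1 alone was at 5.16 and 1.81 FPKM in WT and at 10.8 and 6.25 FPKM in the others. The endothelial sum was thus above Pecam1 in WT replicate 2 and below it in each other library. Of the platelet list, the defining Gp1bb and Itga2b were listed at 0 in every library, and the sum of 496.9 to 1631 FPKM was nearly all Pf4 and lowest in replicate 1 of the mutant-labelled libraries.

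**Figure D4:**
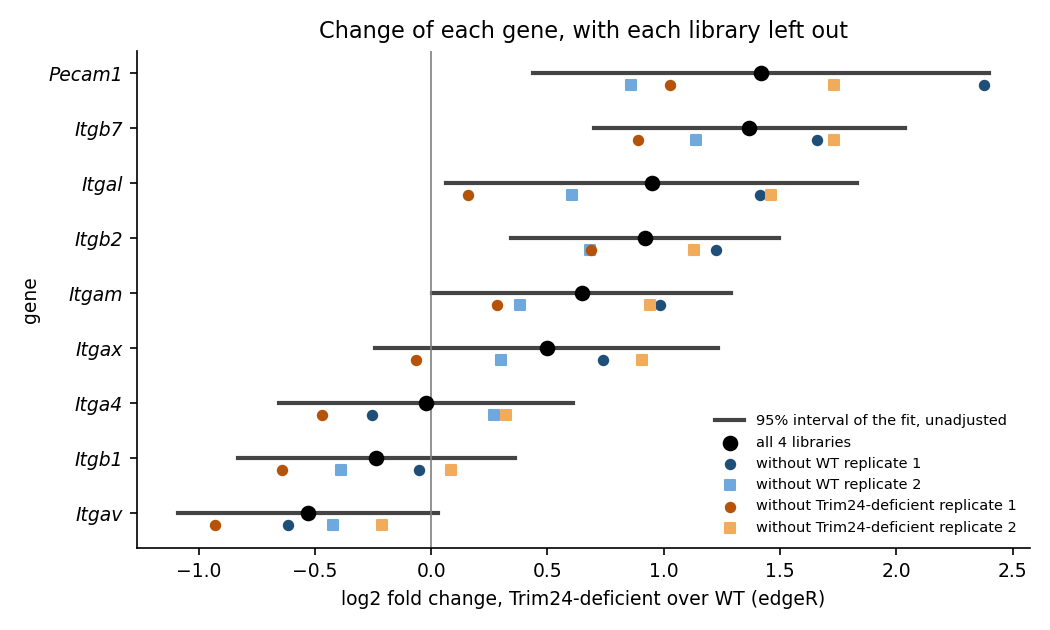
Log2 fold change of each member (mutant-labelled libraries over WT, edgeR) with its unadjusted 95% interval and a grey line at 0. The small coloured points below each interval are the fits with each library left out. The intervals of Itgal, Itgam, Itgb2, Itgb7 and Pecam1 lie above 0, those of the other 4 members span 0, and no member passes the adjusted threshold.

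The wider adhesion machinery was read from 4 lists with 92 genes in all, of which 86 had a value and 66 were tested. There were 2 genes called, both higher, beside 0.292% of tested genes called higher. The log2 fold change was above 0 for 41 and below 0 for 25 of the 66, with a median of 0.13, and 28 did not overlap between labels (19 higher and 9 lower), beside 44.5% of all tested genes (21.4% higher and 23.0% lower).

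Of 31 genes of integrin activation and signalling, 29 were tested, 1 was called and the median log2 fold change was 0.12. The called gene, Fgr, a Src-family kinase of myeloid cells that acts downstream of beta2 integrins, rose from 48.3 and 49.0 CPM in WT to 114 and 109 CPM (log2 fold change 1.19, SE 0.18, adjusted p = 0.0332). The call of Fgr was lost without WT replicate 1 (adjusted p = 0.123), without WT replicate 2 (0.267), without TMM scaling (0.0709) and with limma (0.128 on log2(FPKM + 1)), while its log2 fold change stayed between 0.9975 and 1.23. The related kinase Lyn was far more abundant, with 609 and 523 CPM in WT against 735 and 506 CPM, and was not called (adjusted p = 0.861). Fermt3 (kindlin-3), which activates beta2 and other integrins, had 453 and 367 CPM in WT and 526 and 580 CPM in the others (log2 fold change 0.43, adjusted p = 0.438). Rap1b, a small GTPase of the same step, overlapped between labels (log2 fold change 0.095). Without mutant-labelled replicate 1 the log2 fold changes of Lyn and Rap1b turned to -0.16 and -0.12, and without WT replicate 2 that of Rap1b to -0.031. Ptk2 (focal adhesion kinase), low in these cells, was at 8.48 and 10.6 CPM in WT and at 3.20 and 4.31 CPM in the others (log2 fold change -1.34, adjusted p = 0.222).

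Only 6 of 18 other integrin subunits passed the filter, none was called, and 4 had a log2 fold change below 0. Itga6, a laminin receptor chain, was at 34.1 and 79.8 CPM in WT and at 14.5 and 22.2 CPM in the mutant-labelled libraries. Its groups did not overlap, and its log2 fold change was -1.63 (adjusted p = 0.141). The log2 fold change of Itga6 was -2.10 without WT replicate 1 and -0.89 without WT replicate 2. It was -1.35 without mutant-labelled replicate 1 and -1.97 without mutant-labelled replicate 2. Itgb5, which pairs with Itgav, was at 71.7 and 113 CPM in WT and at 39.0 and 59.6 CPM in the others (log2 fold change -0.90, adjusted p = 0.224). Its log2 fold change was -1.24 without mutant-labelled replicate 2 and -0.54 without WT replicate 2. Itga5, the fibronectin receptor chain, lay at 72.3 and 78.1 CPM in WT and at 89.5 and 95.6 CPM in the others (log2 fold change 0.30, adjusted p = 0.538), and Itga9 had a log2 fold change of -0.33.

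Of 22 ligands and counter-receptors, 12 were tested and none was called, with 10 log2 fold changes above 0 and a median of 0.30. C3, whose fragment iC3b binds Mac-1, was at 47.9 and 46.0 CPM in WT and at 170 and 95.3 CPM in the mutant-labelled libraries (log2 fold change 1.496, adjusted p = 0.0625). Without replicate 1 or 2 of that label the log2 fold change of C3 was 1.03 and 1.855. Without WT replicate 1 or 2 it was 1.54 and 1.47. Icam1, the ligand of LFA-1 and Mac-1, was at 170 and 141 CPM in WT and at 322 and 207 CPM in the others. Its groups did not overlap (log2 fold change 0.76, adjusted p = 0.250). Without mutant-labelled replicate 2 its log2 fold change was 1.05, and without replicate 1 of that label it was 0.42. Thbs1 (thrombospondin-1) was at 36.1 and 20.8 CPM in WT and at 59.0 and 118 CPM in the others (log2 fold change 1.64, adjusted p = 0.112). The log2 fold change of Thbs1 was 2.11 without WT replicate 1 and 1.295 without WT replicate 2. It was 2.06 without mutant-labelled replicate 1 and 1.05 without mutant-labelled replicate 2. Vcam1, the ligand of VLA-4, overlapped (233, 116, 183 and 248 CPM), as did Cd47 and Spp1, the latter spanning 265 to 907 CPM. Without mutant-labelled replicate 2, the log2 fold change of Spp1 was -1.13, and without replicate 1 of that label it stood at 0.65. Vcam1 turned to -0.11 without WT replicate 2.

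Of 21 further leukocyte adhesion genes, 19 were tested and 1 was called. Cd38, an ectoenzyme that also binds Pecam1, was at 90.9 and 42.1 CPM in WT and at 213 and 216 CPM in the mutant-labelled libraries (log2 fold change 1.69, adjusted p = 0.0697). The log2 fold change of Cd38 was 2.37 without WT replicate 1 and 1.24 without WT replicate 2. It was 1.70 without mutant-labelled replicate 1 and 1.68 without mutant-labelled replicate 2. Selplg, the P-selectin ligand, overlapped between labels (log2 fold change 0.27), and so did the tetraspanins Cd63 and Cd81 (-0.48 and -0.24). Cd63 stood at -1.17 without mutant-labelled replicate 2 and at -0.012 without replicate 1 of that label, where Cd81 turned to 0.095. Ninj1 was at 626 and 643 CPM in WT and at 418 and 500 CPM in the others (log2 fold change -0.47, adjusted p = 0.407).

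**Figure D5:**
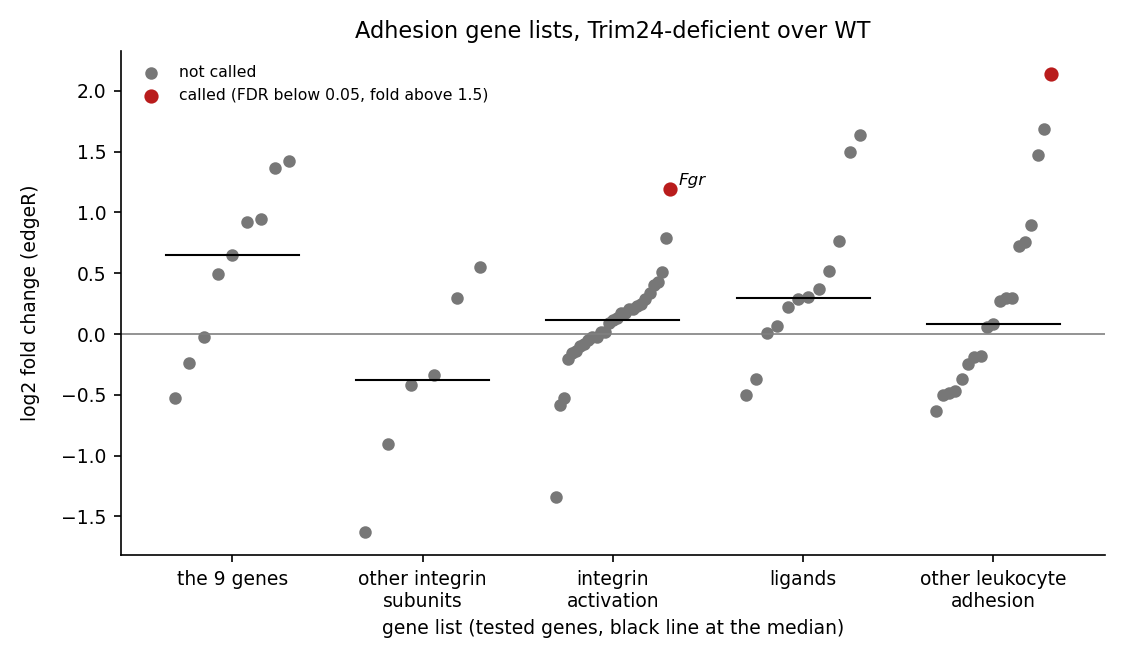
Log2 fold change (mutant-labelled libraries over WT, edgeR) of the 9 members and of the 66 tested genes of the 4 adhesion lists, 1 point per gene and a black line at each median. The 2 called genes are drawn in red, Fgr at 1.19 among them, and the medians of the 4 lists lie between -0.38 and 0.30, beside 0.65 for the members.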

How the data were processed

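The 9 genes, the gene lists and the tests were chosen with earlier results of these data known. Per the study's methods, reads had been aligned with Bowtie to GRCm38/mm10 and genes quantified with RSEM (versions not given in the sources used here). The authors deposited, for each library and gene above 0, an expected count (not normalized, 76.6% to 77.7% whole numbers) and an FPKM, scaled by RSEM to transcript length and library total, together with that length. Genes not listed in a library were set to 0, and 16698 of 16739 matched a symbol.

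Expected counts were rounded, filtered (filterByExpr, 11302 genes kept), scaled by TMM (factors 0.943 to 1.08) and tested on the genotype label with edgeR 4.0.16 (glmQLFit, glmQLFTest, R 4.3.3), two-sided, with Benjamini-Hochberg adjustment over all tested genes. SE is the log2 fold change over the square root of F. With 2 libraries per group and 2 residual degrees of freedom, p-values rest on the spread edgeR shares between genes. Nothing in the labels ties the libraries to single mice, so that spread may be partly technical. Alternatives were DESeq2 1.42.0, limma 3.58.1 with a pseudocount of 1 or 0.1 added to FPKM on the log2 scale (genes reaching FPKM 1 in 2 libraries or more), library totals, upper-quartile scaling, no filter or at least 10 counts per library, a robust fit, no fold limit, a length trend removed, the replicate number as a block, and each library left out. Floors of 3 counts cover counting error only. All members were named, and from each adhesion list the called genes, the 4 highest by mean FPKM and the 2 largest changes. The values of some listed genes that the rule would name are not reported here. The scripts were tested on simulated counts.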

Additional observations from a re-analysis of the deposited data

How the results depend on the processing

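Over 15 alternatives for each of the 9 members, 108 of 135 values kept direction and side of the threshold, 21 passed the threshold and 6 changed direction; the cause was not tested. Genes called, 42 in the reported fit, numbered 634 with the replicate block (425 higher, 209 lower), 163 with DESeq2 (140 and 23), 23 and 20 with limma at pseudocounts of 1 and 0.1, 441 with the length trend removed and replicate block, and 25 to 652 with a library left out. Members called, 0 as reported, were 5 with the replicate block (beside 5.61% of all genes), 2 with DESeq2, 5 with length trend and block together (beside 3.9%), and 0 to 6 with a library left out. Listed adhesion genes called, 2 as reported, were 9 with the replicate block and 9 with length trend and block, 6 with DESeq2, 4 without the filter, 1 without TMM, 0 and 0 with limma, and 1 to 14 with a library left out. Replicate numbers 1 and 2 come from the titles, deviations of same-numbered libraries correlated at 0.165 and nothing ties the numbers to litters or days, so the numbers are not taken as pairs. With the replicate block the log2 fold changes were 0.87 for Itgal (adjusted p = 0.00233), 0.64 for Itgam (0.0356), 0.93 for Itgb2 (0.000387), 1.34 for Itgb7 (2.7e-07) and 1.51 for Pecam1 (1.64e-05). With length trend and replicate block they were 1.001 (0.00463), 0.74 (0.0206), 0.93 (0.00495), 1.33 (0.000672) and 1.53 (0.00423) in the same order. DESeq2 gave 0.94 for Itgb2 (0.0217) and 1.38 for Itgb7 (0.00667). Itga4 changed direction to 0.26 with the length trend removed and to 0.24 with the block as well. With 1 library left out, the lone library being assumed to vary like the other group, log2 fold changes ranged from 0.16 to 1.46 for Itgal, 0.28 to 0.98 for Itgam, -0.064 (without mutant-labelled replicate 1) to 0.91 for Itgax, 0.68 to 1.22 for Itgb2, -0.47 to 0.32 for Itga4, -0.93 to -0.21 for Itgav, -0.64 to 0.084 (without mutant-labelled replicate 2) for Itgb1, 0.89 to 1.73 for Itgb7 and 0.86 to 2.38 for Pecam1. Library totals in place of TMM moved the median of all tested genes to -0.154, and no member changed direction.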
